A study of Mus musculus with 5 samples.

Results

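The regions described here are stretches of mouse autosomal DNA that hold few CpG positions, lie away from CpG-dense DNA and were highly methylated in LSK cells. They were chosen from tiles of 1000 bases by 4 conditions. A member tile had at least 3 CpG positions with a coverage of at least 10 reads in all 5 libraries, fewer than 30 positions listed in any library, no tile with 30 or more listed positions (a dense tile) among the 2 tiles on either side, and a methylation level of 80% or more. The level of a tile is its methylated reads as a percent of all reads with C or T, and the condition was set on the mean of the knock-in and wild-type group means. Of 24319 autosomal tiles with enough shared positions, 6822 (28.1%) met the rule, and these members made up 63.7% of the 10713 CpG-poor tiles away from dense tiles. Their levels were therefore high by choice and are given as a description. The difference between the groups was not itself part of the rule. It is bounded by the ceiling of 100%, and the mean used in the rule gives each wild-type library more weight than each knock-in library. "CpG-poor" refers to listed positions, which depend on where reads fell, and not to the genome sequence.

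In mammalian cells most CpGs outside CpG islands are methylated. DNMT3A and DNMT3B place the mark and DNMT1 copies it to the new strand after replication, while the TET enzymes oxidise methylcytosine, which can lead to its loss. Distal DNA of this kind includes gene bodies, the space between genes and many repeats, and enhancers within it can lose methylation in the cell types that use them. The R132H form of IDH1, the cytosolic isocitrate dehydrogenase, makes 2-hydroxyglutarate, which can inhibit TET enzymes, so that a gain of methylation was one question a comparison of these cells could address.

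Libraries came from 3 Idh1-R132H knock-in samples (KI1, KI2 and KI3) and 2 wild-type samples (WT1 and WT2) of bone marrow LSK cells, the lineage-negative fraction with Sca1 and Kit on its surface that holds blood stem and progenitor cells. Both groups had the same mixed strain background, 129Ola x C57Bl/6J, and the labels used here give no age, sex or treatment and do not say in which cells the knock-in allele is active. Methylation was read by ERRBS, in which DNA is cut with MspI at CCGG, selected by size, treated with bisulfite and sequenced, so that unmethylated cytosine is read as T. Nothing in the labels says that each library came from a separate mouse; p-values then measure only how far these libraries spread, which can be technical. The cell type could not be checked against marker genes, since only DNA methylation was measured.

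Depth and 1 other property set the libraries apart. The tables listed 697321 to 2028186 CpG positions per knock-in library and 447270 and 1131505 per wild-type library. KI2 and WT1 were the shallowest, with a median coverage of 22 and 17 reads at member positions against 50 reads in KI1, 107 in KI3 and 28 in WT2. The same 2 libraries had mean levels of 24.1% each over 159 dense tiles of chromosome X, where the other libraries had 2.94 to 3.82%. Values without these 2 libraries are given beside the results they touch; the part that depth or the chromosome X difference plays in those results was not tested.

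The members were sparsely sampled. They held 28391 of the 280635 shared positions (10.1%), with a median of 4 positions per tile, and 3216 members (47.1%) had the minimum of 3. Only 337 had 8 or more. The shared positions of a member usually sat close together: the median distance from the first to the last was 47 bases, and it was under 100 bases in 5715 members (83.8%). Neighbouring positions on the same strand at most 50 bases apart had nearly equal coverage, within 10% of each other in 92.3 to 95.4% of 18037 such pairs, depending on the library. Positions that close can lie on the same reads, and the positions of a member are not counted as independent measurements.

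Members were spread over all 19 autosomes, where they made up 24.5% (chromosome 19) to 31.3% (chromosome 10) of the tested tiles. The distance to the nearest dense tile had a median of 48 kb and quartiles of 18 and 133 kb, and the nearest allowed was 3 kb. Few members had a tested tile directly beside them, but where 1 was measured it was usually a member too. Neighbours were counted from each member and side, so a pair of adjoining members entered the count from each of its tiles. Of 372 neighbours counted this way, 310 (83.3%) were members and 35 were partly methylated (20 to under 80%). Another 21 were under 20% and 6 were of other kinds. This way of counting raises the share of members, and the share over distinct pairs was not computed. Members with another member directly beside them numbered 296. Members made up 63.7% of all tested CpG-poor tiles away from dense tiles. Whether tiles adjacent to a member were members more often than that was not tested.

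Most members lay well above the threshold. Their median level (mean of the group means) was 94.5%, and 81.9% of them had a level of at least 90%. In 5477 members (80.3%) each of the 5 libraries read 80% or more, and in 2756 (40.4%) each read 90% or more. Just inside the threshold, 3 members had levels of 80.01, 80.01 and 80.04%, and just outside it, the next 3 distal tiles had 79.98, 79.96 and 79.93%. The libraries of these 6 tiles spread from 45.8 to 100%; the tile nearest above the threshold (chromosome 14, 51517000 to 51517999, build mm9) read 58.0% (KI1), 83.0% (KI2), 79.2% (KI3), 100% (WT1) and 73.3% (WT2), so membership at the edge was decided by less than the spread between libraries.

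Averaged over the 6822 members, methylation was 94.4% in KI1, 94.5% in KI2 and 93.2% in KI3, and it was 92.8% in WT1 and 93.0% in WT2. Each knock-in mean lay above both wild-type means, but KI3 was closer to WT1 and WT2 than to KI1 and KI2. The shape of the distribution differed far more between libraries than the mean did. The median tile level was 95.8% in KI1, 100% in KI2, 94.5% in KI3, 95.1% in WT1 and 94.3% in WT2, so by the median the groups overlapped. A level of exactly 100% was read in 53.9% of members in KI2 and 34.2% in WT1, against 19.98% in KI1, 1.80% in KI3 and 5.80% in WT2. The same 2 shallow libraries also had the most members under 80%, with 7.12 and 8.40% against 2.79 to 3.28% in the others. Both ends of the scale were thus fullest in the 2 shallowest libraries.

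**Figure D1:**
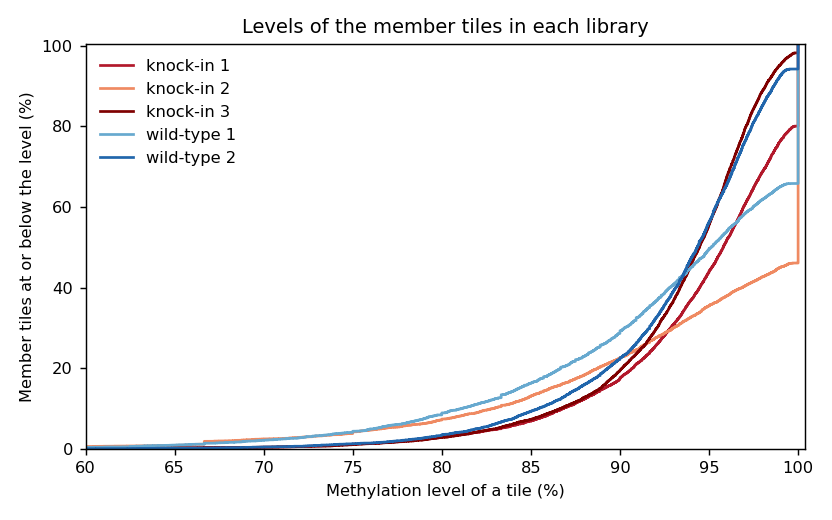
Cumulative share of the 6822 member tiles (y axis, percent) at or below each methylation level (x axis, percent, starting at 60), 1 line per library. Knock-in 2 and wild-type 1 rise earliest at low levels and then jump at 100%, where 53.9% and 34.2% of their members lie.

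The design asks whether methylation of LSK cells differs with the mutation. Over the members the mean level was 94.0% ± 0.726 (SD, n = 3) in knock-in cells against 92.9% ± 0.150 (SD, n = 2) in wild-type cells, a difference of 1.13 percentage points. An exact 2-sided permutation test over all 10 assignments of the libraries, where p cannot fall below 0.1, gave p = 0.2 (adjusted p = 0.35 over 7 comparisons). The direction held in each of the 19 autosomes, with differences of 0.477 points (chromosome 3) to 1.999 points (chromosome 14), but KI1, KI2 and KI3 were each above WT1 and WT2 in only 11 of them. The autosomes share the same libraries and are not replicates. Without KI2 and WT1 the difference was 0.784 points, with 1 wild-type library left and no test. Tile by tile, KI3 read higher than WT1 in 43.2% of members and lower in 55.9%, although its mean was higher. Over all 24319 tiles tested, members included, the difference of the group means was 0.949 points. Each knock-in library averaged above both wild-type libraries there too.

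Levels differed little with how many CpGs a member held or how far it lay from dense DNA. The 4004 members with 3 to 9 listed positions averaged 94.0% ± 0.676 (SD, n = 3) with the mutation and 92.9% ± 0.210 (SD, n = 2) without it. The 2818 with 10 to 29 averaged 94.1% ± 0.798 (SD, n = 3) against 92.9% ± 0.0651 (SD, n = 2). The excess in mutant cells came to 1.11 and 1.15 points in these classes, each with an exact permutation p of 0.2 (adjusted p = 0.35). By distance, the difference was 1.52 points in the 417 members 3 to 5 kb from a dense tile, 1.14 points in the 1521 at 6 to 20 kb, 1.16 points in the 2742 at 21 to 100 kb and 0.995 points in the 2142 farther away. The differences between distance classes were not tested.

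The excess was larger in the less fully methylated members. It was 3.50 points in the 386 members of 80 to under 85%, 2.76 points in the 850 of 85 to under 90%, 1.52 points in the 2604 of 90 to under 95% and 0.00944 points in the 2982 of 95% or more. These classes are cut on the same mean that chose the members, and room for a difference shrinks toward 100%, so no test was made. The order of the libraries turned over along the way. WT1 was the lowest library in members under 85%, at 79.1% against 82.8 to 85.7%, and among members of 95% or more it was the second highest, at 97.8%, after KI2 at 98.3% and above 95.6 to 96.8% in the rest.

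Compared with CpG-poor tiles of the same level that do lie beside dense tiles, the members showed a similar difference of means. The median difference over tiles was 0.774 points in the members and 0.417 points beside dense tiles. In those 286 tiles KI1, KI2 and KI3 read 94.2, 94.1 and 92.3%, and WT1 and WT2 92.9 and 92.5%. KI3 was below WT1 and WT2 there, so the groups overlapped, unlike in the members. The group means were 93.5% ± 1.043 (SD, n = 3) against 92.7% ± 0.300 (SD, n = 2), a difference of 0.875 points. The members' difference was 0.251 points larger, with an exact permutation p of 0.5 (adjusted p = 0.7), and it changed sign to -0.668 points over positions with at least 20 reads and to -0.0670 points without WT1; a p in a design of this size does not show that the sets are alike. In the 1184 distal tiles of 20 to under 80% the level was 58.96% ± 2.33 (SD, n = 3) against 53.3% ± 1.052 (SD, n = 2), higher in mutant cells by 5.66 points. The members' difference minus that of the partly methylated tiles was -4.53 points (exact permutation p = 0.2, adjusted p = 0.35). These 2 sets are cuts of the same mean level, and tiles near 100% have less room for a difference. This p therefore shows nothing particular to the members.

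**Figure D2:**
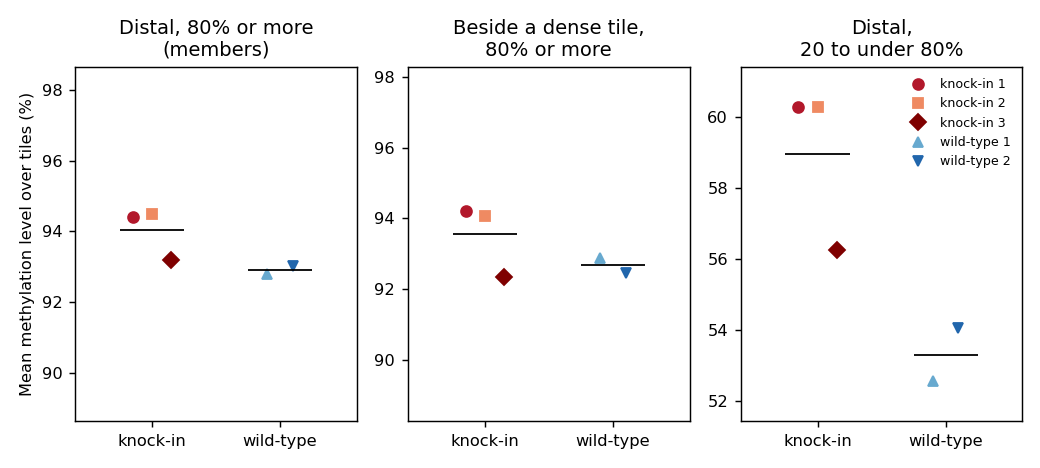
Mean methylation level (y axis, percent, each panel spanning 10 points) of each library over the members, over CpG-poor tiles of 80% or more beside a dense tile, and over distal tiles of 20 to under 80%; points are libraries and bars are group means. Knock-in libraries 1 and 2 lie highest in each panel. Knock-in 3 lies near the wild-type libraries over the 2 highly methylated sets, and below both of them in the tiles beside a dense tile.

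At single positions, too, the libraries differed in kind. The share of the 28391 member positions read at exactly 100% was 58.5% in KI1, 83.6% in KI2, 27.3% in KI3, 71.6% in WT1 and 39.2% in WT2, and such a share depends on depth. To compare positions at the same number of reads, each was reduced to 10 reads, by the formula for drawing them without replacement. This step does not correct for duplicate reads, whose removal is not stated. The chance that all 10 were methylated was then 72.7% in KI1, 85.6% in KI2, 60.9% in KI3, 74.8% in WT1 and 59.8% in WT2. KI2 and WT1 stayed the highest of their own groups after this step. The group means were 73.0% ± 12.3 (SD, n = 3) and 67.3% ± 10.6 (SD, n = 2), a difference of 5.75 points (exact permutation p = 0.6, adjusted p = 0.7) that was -0.506 points without KI2, -1.75 points without WT2 and 7.0 points without KI2 and WT1.

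Positions that read below 50% inside these highly methylated tiles were rare and mostly seen in 1 library. Of the 28391 positions, 1819 (6.41%) were under 50% in at least 1 library, and 1656 of them in exactly 1. KI2 supplied 792 of the 1656 (47.8%) and WT1 supplied 610 (36.8%), against 133 in KI1, 65 in KI3 and 56 in WT2. Where KI2 alone was low, its median level was 31.6%, and it read 0% at 191 of the 792; the median over these positions of the mean of the other libraries was 93.0%. By library, positions under 50% made up 0.719% in KI1, 3.16% in KI2, 0.423% in KI3, 2.44% in WT1 and 0.465% in WT2. The group means, 1.43% ± 1.504 (SD, n = 3) and 1.45% ± 1.40 (SD, n = 2), differed by -0.0182 points (exact permutation p = 0.9, adjusted p = 0.9), and by 0.106 points without KI2 and WT1. The sign also turned without KI1 (0.340 points), KI3 (0.488 points) or WT1 alone (0.970 points). Bisulfite reads of 1 strand do not tell an unmethylated cytosine from a thymine in the DNA of these mice, and which of the 2 applies was not tested.

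A low level was rarely shared between the strands of a CpG in KI1, KI2 and WT1, and few CpGs were low in KI3 and WT2. In 1725 CpGs of the members both cytosines were measured in all libraries. The strands were on opposite sides, 1 at 80% or more and the other under 50%, in 89 CpGs (5.16%) of KI2 and 76 (4.41%) of WT1, but in 21 of KI1, 2 of KI3 and 3 of WT2. Of the CpGs with at least 1 strand under 50%, both strands were under 50% in 5 of 101 in KI2, 4 of 105 in WT1, 2 of 31 in KI1, 5 of 10 in KI3 and 1 of 7 in WT2. Averaged over all member positions the strands agreed closely: 14057 forward and 14334 reverse positions averaged 93.2 and 93.2% in KI3, and 92.96 and 93.1% in WT2.

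Within so narrow a range, tile levels of different libraries were weakly related. Across the 6822 members, Pearson's r of the level between 2 libraries was 0.0862 (KI2 with WT1) to 0.455 (KI3 with WT2); tiles are not independent replicates, and the choice of members narrows the range. The median distance between the highest and the lowest library of a member was 10.7 points over all members. It was 12.2 points in members with 30 to 49 reads in their shallowest library, 10.7 points at 50 to 99 reads, 8.65 points at the next class, up to 200 reads, and 5.70 points in the 94 members with 200 or more. In 19 members the libraries lay over 50 points apart, and the lowest of them was KI2 in 13, WT1 in 5 and KI3 in 1.

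No member passed the test of single tiles. By the quasi-likelihood test of edgeR on methylated and unmethylated reads, fitted to all 24319 tiles, 0 of the 6822 members were higher in mutant cells and 0 were lower, at an adjusted p under 0.05 (background over all tiles 0% in each direction), and the smallest edgeR adjusted p among members was 0.80. At an unadjusted p under 0.05, 62 members (0.909%) were higher and 26 (0.381%) lower, where the background over all tiles was 0.843% higher and 0.748% lower. These shares are smaller than a cut at 0.05 passes when no tile differs, so the edgeR test was cautious here. Its 0 calls do not show that no member differs. By limma the adjusted counts were also 0 on arcsine, centred arcsine and log2 ratio scales (background over all tiles 0% on each). Without adjustment, 204 members (2.99%) were higher and 121 (1.77%) lower on the arcsine scale, against backgrounds of 2.66% and 1.22%. On the centred scale they were 270 (3.96%) and 191 (2.8%), against 2.1% and 1.57%. On log2 ratios they were 396 (5.8%) and 52 (0.762%), against 2.55% and 1.41%, so that the members' share of lower tiles was above the background on the arcsine scales and below it on the log2 scale and in edgeR. The smallest limma adjusted p was 0.0514, on arcsine levels.

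Where the groups did not overlap, mutant cells were more often the higher group. In 246 members (3.61%) KI1, KI2 and KI3 were each higher than WT1 and WT2 and the means differed by 10 points or more, and in 84 (1.23%) each was lower; the background over all tiles was 2.37% higher and 0.621% lower. Without the rule on size there were 836 (12.3%) and 357 (5.23%) members, against backgrounds of 8.98% and 3.61%. With means 5 or more points apart there were 646 (9.47%) and 260 (3.81%), against 4.84% and 1.66%. With means 20 or more points apart the members' shares were below the background, with 16 (0.235%) higher and 4 (0.0586%) lower against 0.596% and 0.074% of all tiles. The background includes the members, 11229 dense tiles and 2707 distal tiles under 20%. In the 1184 distal tiles of 20 to under 80%, 14.9% were higher and 3.21% lower at 10 points, and 7.69% and 0.676% at 20 points. In the 286 tiles of 80% or more beside dense tiles the shares were 1.75% and 0.699% at 10 points. With means 10 or more points apart the ratio of higher to lower was 2.93 in members and 3.82 in all tiles. It was 2.34 and 2.49 without the rule on size and 4.0 and 8.06 at 20 points, with knock-in more often higher in both sets. The median difference was 13.1 points in the 246 and -11.9 points in the 84. Most rested on little data: 216 of the 246 and 73 of the 84 had 3 or 4 positions, and among the 1084 members with at least 100 reads in every library 14 were higher and 4 lower. Without KI2 and WT1 the counts over all members were 334 and 115. They were 325 and 203 without KI1, 424 and 177 without KI3 and 921 and 287 without WT2. Groups of fewer libraries are easier to separate, so counts with libraries left out are not comparable with the 246 and 84. No share over all tiles is given beside them or beside the counts at 100 reads, so none is read as a result about the members. Over all members, the mean difference was 1.13 points, against 0.949 points over all tiles. The median difference was 0.774 points in members and 0.0790 points over all tiles, a set that includes the dense tiles and the distal tiles under 20%. The knock-in mean was higher in 3910 members (57.3%) and lower in 2910 (42.7%), against 58.8% and 31.8% of all tiles. In 4681 members (68.6%) the group means lay within 5 points of each other.

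**Figure D3:**
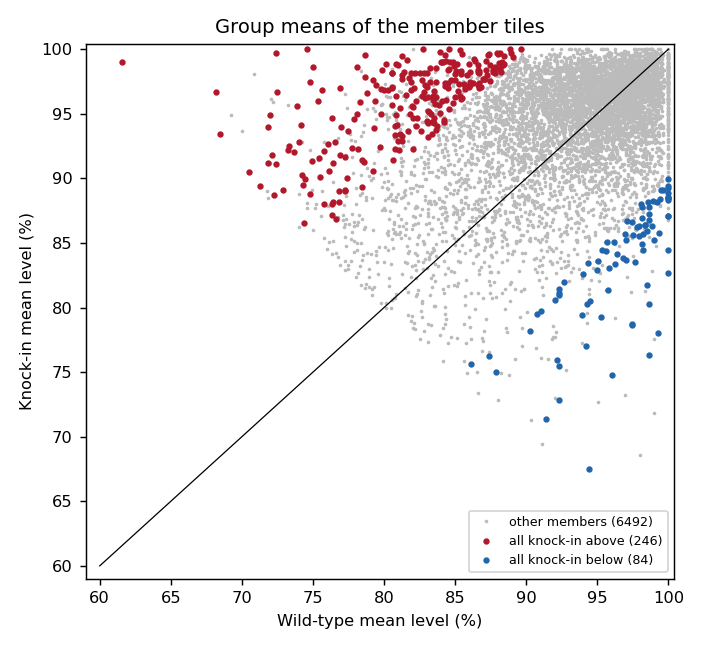
Mean level of the 3 knock-in libraries (y axis, percent) against that of the 2 wild-type libraries (x axis, percent) for each of the 6822 members, with the line of equality. Coloured points are the 246 tiles where each knock-in library exceeded each wild-type library and the 84 where each fell short, with means 10 or more points apart; the cut lower left corner is the 80% threshold.

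Of the members with knock-in higher, the 5 with the widest gap between the lowest knock-in and the highest wild-type library were each read over 3 positions. Their coordinates here and below are of build mm9, and no gene annotation of that build was used. The first, on chromosome 19 from 4298000 to 4298999, read 93.4% in KI1, 96.2% in KI2, 90.6% in KI3, 69.8% in WT1 and 67.1% in WT2, over 96 to 351 reads. The group means were 93.4% ± 2.78 (SD, n = 3) and 68.4% ± 1.92 (SD, n = 2). Both wild-type libraries were low at 4298882, with 68.8 and 67.3%, but they differed at the other positions: at 4298844 WT1 read 100% and WT2 59.6%, while at 4298867 WT1 read 40.6% and WT2 75%.

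The second, on chromosome 4 from 135792000 to 135792999, read 99.1% in KI1, 100% in KI2, 93.3% in KI3, 73.3% in WT1 and 76.2% in WT2, over 48 to 179 reads. Most of the difference lay at 1 position, 135792440 on the reverse strand, with 100% in KI1 and KI2, 80.95% in KI3, 40.0% in WT1 and 38.1% in WT2, while all 5 libraries read 100% at 135792458, 18 bases away. The other 3 lay on chromosome 17 (86888000 to 86888999), chromosome 9 (115058000 to 115058999) and chromosome 2 (91317000 to 91317999), with differences of 18.6, 16.9 and 14.7 points and 36 to 396 reads per library. Unadjusted edgeR p-values of the 5 were 0.0394 to 0.0802, with an edgeR adjusted p of 1 for each. As the 5 were picked for the gap between the groups, the unadjusted values are not separate support for a difference.

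In the other direction the distances were narrower. The tile on chromosome 12 from 93331000 to 93331999 read 86.8% in KI1, 86.96% in KI2, 79.5% in KI3, 100% in WT1 and 96.5% in WT2, over 36 to 610 reads. The fourth, on chromosome 6 from 119481000 to 119481999, had the widest difference of means among the 5 lower tiles, -21.2 points, with 77.4, 66.7 and 90.1% against 100 and 98.6%. Position 119481689 differed most within it and read 31.5% in KI1, 0% in KI2, 98.9% in KI3 and 100% in WT1 and WT2. The remaining 3 were on chromosome 1 (92222000 to 92222999) and chromosome 2 (69851000 to 69851999 and 149315000 to 149315999), with differences of -16.7, -11.5 and -18.7 points; that on chromosome 1 was -11.06 points without KI1. WT1 read 100% in all 5 lower tiles, over 30 to 42 reads.

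**Figure D4:**
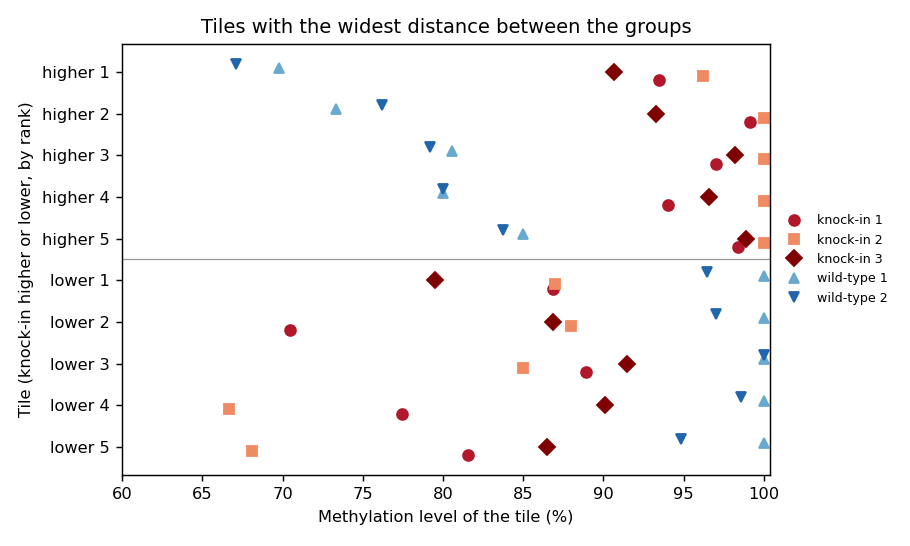
Methylation level (x axis, percent, starting at 60) of each library in the 5 members with the widest distance between the groups and knock-in higher (upper rows) and the 5 with knock-in lower (lower rows), numbered by that distance. The gap between the groups is 13.4 to 20.8 points in the upper rows and 8.36 to 9.50 points in the lower rows.

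Among the 337 members with 8 or more positions, the widest separation was on chromosome 14 from 121996000 to 121996999. Over 9 positions and 231 to 915 reads it read 89.7% in KI1, 88.7% in KI2, 90.1% in KI3, 70.1% in WT1 and 78.5% in WT2, a difference of 15.1 points, which was 10.9 points without WT1 and 7.25 points over its 4 positions with at least 20 reads in every library. The reverse-strand position 121996495 stood out within it, with 100% in KI1 and KI2, 96.1% in KI3, 43.2% in WT1 and 48.6% in WT2, while the forward cytosine of the same CpG, at 121996494, read 83.9, 85.9 and 79.2% against 68.2 and 86.1%. The next 4 began at 151426000 on chromosome 2, 34428000 on chromosome 7 and 56892000 and 66729000 on chromosome 17, with differences of 8.34, 6.98, 8.69 and 5.86 points; over positions with at least 20 reads the first was 2.23 points (2 positions) and the tile at 56892000 was 14.8 points (9 positions). The 3 widest with knock-in lower began at 28132000 on chromosome 7, 126770000 on chromosome 10 and 139336000 on chromosome 4, at -5.75, -6.17 and -7.78 points. The edgeR unadjusted p of these 8 tiles ranged from 0.0343 to 0.618, and none passed after adjustment. The tiles were picked for the gap between the groups, so these p-values are not separate support for a difference. The gap between the nearest libraries of the 8 tiles was 2.61 to 10.1 points, out of 337 members, and so narrower than the 13.4 to 20.8 points of the 5 widest among all 6822.

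The smallest edgeR p-values belonged to members in which 1 group read 100% throughout. On chromosome 13 from 58120000 to 58120999 (4 positions), KI1, KI2 and KI3 each read 100%, WT1 76.5% and WT2 89.0%. Its edgeR p was 3.29e-05, with an edgeR adjusted p of 0.80. WT1 read 76.5% over 17 reads at each of the 4 positions, which span 43 bases, and WT2 read 77.8 to 95.7%. The next were on chromosome 11 (97806000 to 97806999) and chromosome 8 (108228000 to 108228999), whose differences went from 25.4 to 5.65 points and from 15.5 to 5.93 points without WT1, and rose to 45.2 and 25 points without WT2. In the other direction both wild-type libraries read 100% in the tiles beginning at 150146000 on chromosome 7, 59774000 on chromosome 11 and 152521000 on chromosome 2, with differences of -8.29, -10.6 and -6.31 points. The first and the last of these were -3.34 and -3.99 points without KI2. Over positions with at least 20 reads the tile on chromosome 11 was at -6.33 points (2 positions) and that on chromosome 2 at -9.91 points (1 position).

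The 3 members with the most reads differed by less than 1 point between the groups. On chromosome 2 the tile from 98506000 to 98506999, with 22 positions and 81158 to 1139433 reads per library, read 96.7% in KI1, 96.2% in KI2, 95.9% in KI3, 95.1% in WT1 and 95.8% in WT2. Most of these reads lay at 1 position, 98506661 on the reverse strand. Its coverage was 683485 in KI1, 102397 in KI2, 1051232 in KI3, 73757 in WT1 and 282985 in WT2. The level of the tile is therefore mostly that of this position, while position 98506983 had a coverage of 11 in KI1. The tile from 98507000 to 98507999 read 84.5, 83.1 and 84.2% against 83.3 and 84.0%, and that from 98502000 to 98502999 read 89.9, 88.3 and 87.4% against 86.6 and 90.1%. The median member had 66 to 413 reads, depending on the library, against 10256 or more in each library of these 3 tiles. Whether their reads came from repeated DNA was not tested. The differences of the 3 tiles were 0.762, 0.283 and 0.226 points, and with a library left out they were 0.381 to 1.14, -0.0944 to 0.689 and -1.54 to 1.99 points. The groups overlapped in the last 2 and did not in the first, where the SDs were 0.409 (n = 3) and 0.540 (n = 2). A tile on chromosome 14 from 52629000 to 52629999 with 16 positions differed by 6.98 points, but by -1.68 points without WT1, which read 74.3% where the others read 87.5 to 91.6%.

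A few positions read as T in most reads of every library although the rest of their tile read as methylated. Whether they are unmethylated cytosines or thymines in the DNA of these mice, which have a mixed strain background, was not tested. There were 13 member positions under 50% in all 5 libraries, and 2 of them, named after their values were seen, had no read with C in any. Position 104739389 on chromosome 13 (reverse strand) had 0 of 366 reads with C, which allows a share of up to 0.820%, and the other 5 positions of its tile averaged 93.0%. Position 84386973 on chromosome 16 (forward strand) had 0 of 2163 reads with C, which allows up to 0.139%, and the other 5 positions of its tile averaged 94.2%. Their nearest shared neighbours, 5 and 23 bases away, read 85.3 to 100% and 90.6 to 100% in the libraries. Both bounds cover counting error only.

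The remaining 11 positions spanned means over the libraries of 0.505 to 40.0%. Both strands of 1 CpG on chromosome 2, at 98502984 and 98502985, averaged 0.505 and 0.930% in the deep tile from 98502000. At another CpG nearby, position 98506420 on the reverse strand averaged 22.6% while its forward cytosine averaged 96.8%. That all libraries were under 50% at these positions is how they were chosen.

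**Figure D5:**
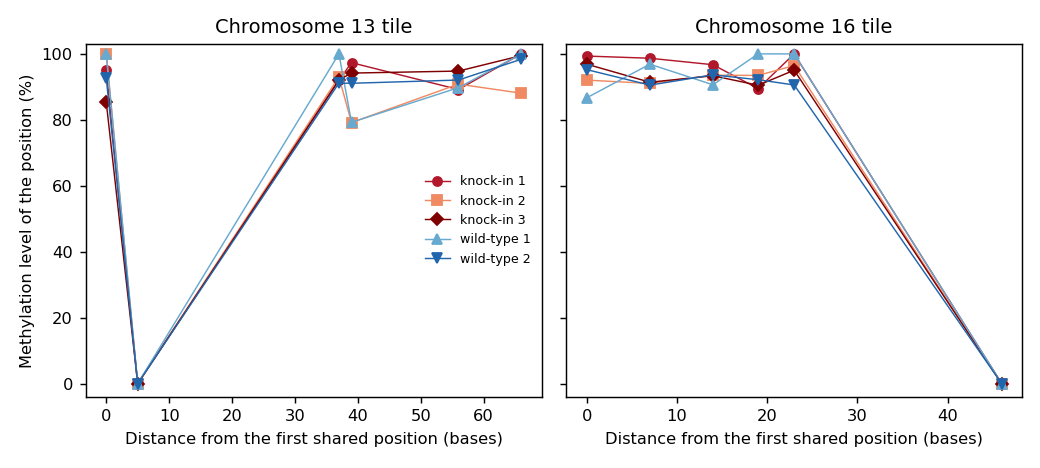
Methylation level (y axis, percent) of each shared position in the 2 members that hold a position without any read of C, against the distance in bases from the first shared position (x axis); 1 line per library. All 5 libraries drop to 0% at 1 position and read 79.2 to 100% at the others.

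Positions low in all libraries of 1 group and in none of the other were fewer than those low in every library. Both wild-type libraries were under 50% and no knock-in library was at 9 positions, and all knock-in but no wild-type libraries were under 50% at 1. The condition is easier to meet for 2 libraries than for 3, so the 2 counts are not comparable. Of the 9, the position at 121996495 on chromosome 14 and that at 135792440 on chromosome 4, both described above, had the highest knock-in levels, and in the other 7 the lowest knock-in library read 50.9 to 75.4%. The 1 position low in knock-in cells, 111893835 on chromosome 2, read 36.5% in KI1, 39.1% in KI2, 0% in KI3, 53.8% in WT1 and 100% in WT2.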

How the data were processed

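The authors' table for a library gives, per the file headers, the coverage of each CpG cytosine as a whole read count and the percent of those reads with C and with T. The submitters' processing notes name CASAVA 1.7, Bismark (version not given in the sources used here) and build mm9; whether duplicates were removed is not stated there. The deposited tables start at 10 reads. Methylated and unmethylated reads are coverage times the deposited percent of C or T, whole at 100% of positions within the rounding of the percent. Reads carry no molecular identifiers, so the bounds given cover counting error alone. Positions were joined by chromosome, base and strand, and summed in tiles of 1000 bases.

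Tiles were tested with edgeR 4.0.16 (quasi-likelihood, library terms, Benjamini-Hochberg adjustment over all 24319 tiles) and limma 3.58.1 in R 4.3.3; both were tested on simulated data. Library means were compared by exact permutation in Python 3.11.15. The members and lists were chosen with earlier results of these data known. Named tiles were those with the widest gap between the groups (5 in each direction), the same among members with 8 or more positions (5 and 3), the smallest edgeR p (3 each), the most positions (5), the most reads (3) and those nearest the threshold (3 on each side). Alternatives were a coverage of 20, weighting by reads or positions, other thresholds, other tools and leaving out each library. No genome or annotation of build mm9 was used, so tiles have no gene names here.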

Additional observations from a re-analysis of the deposited data

How the results depend on the processing

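The knock-in excess over all members kept its direction under each alternative tried, at 0.714 points (threshold of 90%) to 2.02 points (median over tiles), the latter with overlapping groups and an exact permutation p of 0.6; without each library in turn it was 0.891 to 1.54 points. Median over tiles, the omission of the 2 shallowest libraries (KI2 and WT1), the read minimum of 100 and read weighting without the top 0.1% of coverage were chosen after seeing the data. Members minus tiles beside dense DNA, 0.251 points, was -0.668 with 20 reads and -0.0670 to 0.570 with a library left out. The chance of 10 methylated reads, 5.75 points, was -1.75 to 13.3 with a library left out. The share of positions under 50%, -0.0182 points, was 0.239 with 20 reads, 0.106 without the 2 shallowest libraries, and -1.006 to 0.970 with 1 library left out. The cause was not tested.

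Counts of members with separate groups (246 higher, 84 lower) were 836 and 357 with no rule on size. They were 646 (9.47%) and 260 (3.81%) at 5 points, against 4.84% and 1.66% of all tiles. At 20 points they were 16 (0.235%) and 4 (0.0586%), against 0.596% and 0.074%. The members' shares were thus above those of all tiles at 5 and 10 points and below them at 20. Such an excess was not particular to the members: distal tiles of 20 to under 80% had shares of 14.9% and 3.21% at 10 points. The counts of members with separate groups were 82 and 24 of 1996 members with 20 reads, 30 and 11 of 1937 with 5 or more positions, 104 and 49 of 5586 at a threshold of 90%, and 14 and 4 of 1084 with 100 reads in every library, where fewer tiles were counted. No share over all tiles is given under these settings, so these counts do not show whether members differ from the background. With a library left out they were 260 to 921 and 107 to 287, in both directions most without WT2, which leaves 1 wild-type library to separate from. Without the 2 shallowest libraries they were 334 and 115. Fewer libraries are easier to separate, and no share over all tiles is given for these omissions. Counts of members by edgeR and limma at an adjusted p under 0.05 were 0 under each alternative. The edgeR test at a coverage of 20 covered 1129 members, not the 1996 above. No paired analysis was possible because the numbers in the labels are not shared between the groups; the library numbers used here only name the libraries in accession order and tie none of them together. Median reads per member tile of 66 in WT1 limit what a single tile can show.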
